A study of Mus musculus with 2 samples.

Results

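The mRNAs of mucus and its companion proteins were followed through the cells of colitis-associated colon cancers (CACs) of the mouse. The set held 10 genes, listed by name, of the 32291 genes of the table: the mucins Muc2, Muc6 and Muc13, the trefoil factor Tff3, the transcription factor Spdef, and the secretory genes Fcgbp, Zg16, Clca1, Agr2 and Spink4. All 10 had UMIs in the tumors. They were described in each of the 11 annotated cell types of both libraries, and within epithelial cells by whether a cell also held UMIs of Lgr5, a stem cell marker, or of Krt20, a keratin of differentiated colon epithelium. Mice were 6 to 10 weeks old at the start and received the carcinogen azoxymethane at 10 mg/kg and 3 courses of dextran sodium sulfate in the drinking water, at 2.5% for the first and second and 2% for the last, and were killed at day 110. The library labelled Mir34a_F/F came from mice with floxed Mir34a alleles. The library labelled Mir34a_Mye_KO came from floxed mice that also carried LysM-Cre, which acts in macrophages, neutrophils and other myeloid cells, so that the deletion is aimed at myeloid cells and not at the epithelium. Each library combined 6 to 8 tumors of 3 mice, and there was 1 library per genotype.

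Goblet cells are the mucus cells of the gut lining. Muc2 forms the gel that covers the colon, Tff3 is a small peptide secreted with it that helps the epithelium to heal, and Fcgbp, Zg16 and Clca1 are further proteins of the mucus layer. Spdef drives late goblet differentiation, Agr2 is a protein disulfide isomerase of the endoplasmic reticulum that is needed to make Muc2, and Spink4 is a small secreted protein with a protease inhibitor domain. Muc13 differs from these because it is anchored in the apical membrane of absorptive as well as goblet cells. Muc6 is a gel-forming mucin of stomach glands and Brunner's glands, not a usual product of the healthy colon.

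The libraries labelled Mir34a_F/F and Mir34a_Mye_KO held 20312 and 18571 cells, of which 11614 and 9865 were annotated as epithelial. Levels are given as the mean over cells of UMIs (unique molecular identifiers, 1 per captured mRNA molecule) per 10000 UMIs of the cell, and intervals are at 95% and cover counting error only. Cells of the library labelled Mir34a_Mye_KO were deeper in 11 of 11 types, by 1.11 to 5.69 times in median UMIs, with 5315.5 and 6623 in epithelial cells. The libraries shared 96 cell barcodes. Epithelial markers went with the epithelial label. Epcam, Krt8, Krt18 and Cdh1 were each at least 2.10 times as high as in each of the 6 largest other cell types, in both libraries. Markers of other lineages in these cells are not given here. The paper reports an inflammatory subtype of the tumor epithelial cells that also expressed macrophage markers. It was more abundant in the tumors with myeloid deletion, and its part in the library ratios was not tested. The targeted gene gave no clear check of the genotype labels. UMIs of the added primary Mir34a transcript in macrophages numbered 133 and 462, a log2 ratio of 1.03 (0.74 to 1.31) in the direction of the library labelled Mir34a_Mye_KO, and it is not known here whether this feature lies in the deleted part. Lyz2, the gene into which LysM-Cre is inserted, was lower in its macrophages, with 1379 against 3892 UMIs, a log2 ratio of -2.27 (-2.36 to -2.18), which is the direction the labels give. It was lower in T cells (-1.92) and epithelial cells (-1.42) too.

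Of the genes described here, 4 lie on chromosome 7 (mm10 coordinates): Fcgbp at 28071236 to 28120862, Zg16 at 127050156 to 127087328, Muc6 at 141633456 to 141655319 and Muc2 at 141690340 to 141754693. Muc6 and Muc2 are neighbours, 35020 bases apart and on opposite strands, at one end of a cluster of 4 gel-forming mucins that goes on with Muc5ac and Muc5b. The remaining genes are Clca1 (chromosome 3, 145003817 to 145032776), Spink4 (chromosome 4, 40920052 to 40931395), Agr2 (chromosome 12, 35992907 to 36004087), Muc13 (chromosome 16, 33794037 to 33819934), Spdef (chromosome 17, 27714352 to 27728955) and Tff3 (chromosome 17, 31125306 to 31129646). Exons of Muc13 overlap Gm15657 on the opposite strand, and no other member shares exon sequence with another gene of the table.

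The 250 bases before the transcription start (RefSeq, GRCm38.p6) were available for 6 of the 10 genes, and 5 short motifs were searched on both strands. These were TATAAA (the TATA box, in 12.4% of 32851 windows of this length), CAGCTG (an E-box, the same on both strands, 13.0%), GATAAG (a zinc finger factor motif, 6.55%), TGTTTAC (forkhead factors, 3.17%) and TTTATNG (caudal factors, 9.81%, which on the other strand can hold TATAAA). Windows are printed for Muc2 and Fcgbp, which went together over epithelial cells, for Agr2, which held the remaining match, and for Muc6, which went the other way. Capitals mark the matches. Muc2 is at chr7:141690090-141690339 (+), Fcgbp at chr7:28070986-28071235 (+), Agr2 at chr12:35992675-35992924 (+) and Muc6 at chr7:141655394-141655643 (-).
Muc2: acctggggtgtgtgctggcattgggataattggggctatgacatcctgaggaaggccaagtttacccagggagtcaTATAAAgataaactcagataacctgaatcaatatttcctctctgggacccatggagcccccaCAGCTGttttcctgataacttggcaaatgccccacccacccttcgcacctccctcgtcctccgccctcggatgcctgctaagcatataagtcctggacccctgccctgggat
Fcgbp: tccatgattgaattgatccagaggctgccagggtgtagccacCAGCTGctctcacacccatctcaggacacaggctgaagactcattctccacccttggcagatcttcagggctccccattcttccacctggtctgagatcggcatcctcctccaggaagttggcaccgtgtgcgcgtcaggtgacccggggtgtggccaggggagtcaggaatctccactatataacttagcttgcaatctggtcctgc
Agr2: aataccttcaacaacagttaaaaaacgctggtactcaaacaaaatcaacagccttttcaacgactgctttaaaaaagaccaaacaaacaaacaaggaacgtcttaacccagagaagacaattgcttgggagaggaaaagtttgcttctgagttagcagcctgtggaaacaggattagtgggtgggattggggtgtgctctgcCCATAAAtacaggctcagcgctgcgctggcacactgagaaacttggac
Muc6: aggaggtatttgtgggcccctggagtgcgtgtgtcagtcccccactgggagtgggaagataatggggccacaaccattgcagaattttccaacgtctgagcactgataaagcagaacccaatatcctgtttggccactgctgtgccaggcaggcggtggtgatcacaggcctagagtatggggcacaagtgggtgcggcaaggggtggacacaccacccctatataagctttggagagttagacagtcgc
Muc2 held TATAAA at bases -174 to -169 from the start and CAGCTG at -112 to -107, Fcgbp held CAGCTG at -208 to -203, and Agr2 held the caudal letters on the reverse strand at -48 to -42. The windows of Muc6, Muc13 and Spdef held none of the 5. These are matches of letters and say nothing of binding.

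Across cell types, the epithelium had the highest level of nearly every gene of the set. In the library labelled Mir34a_F/F it ranked first for 9 of 10, and Spdef was higher in the 106 erythroid cells, on 2 UMIs. In the library labelled Mir34a_Mye_KO it ranked first for 8 of 10, with Muc6 higher in the 107 endothelial cells, on 3 UMIs, and Agr2 in the 30 erythroid cells, on 10 UMIs. Muc2 in epithelial cells was at 2.89 and 3.48 UMIs per 10000 (library labelled Mir34a_F/F first, here and below), and at 1.10 and 1.01 in T cells. Muc13 was at 10.0 and 8.83 in epithelial cells against 3.38 and 2.42 in T cells. Both mucins were therefore highest where they are made, but neither was near 0 elsewhere. Spink4 was found in 80.6% and 79.0% of epithelial cells and, among T cells, which do not make it and whose median depth was 3548 and 8043 UMIs, in 72.8% and 76.1%. With every cell thinned to 1000 UMIs, the shares were 31.9% and 30.3% of epithelial cells and 31.8% and 20.4% of T cells. A Spink4 UMI did not by itself mark an epithelial cell in these libraries.

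**Figure D1:**
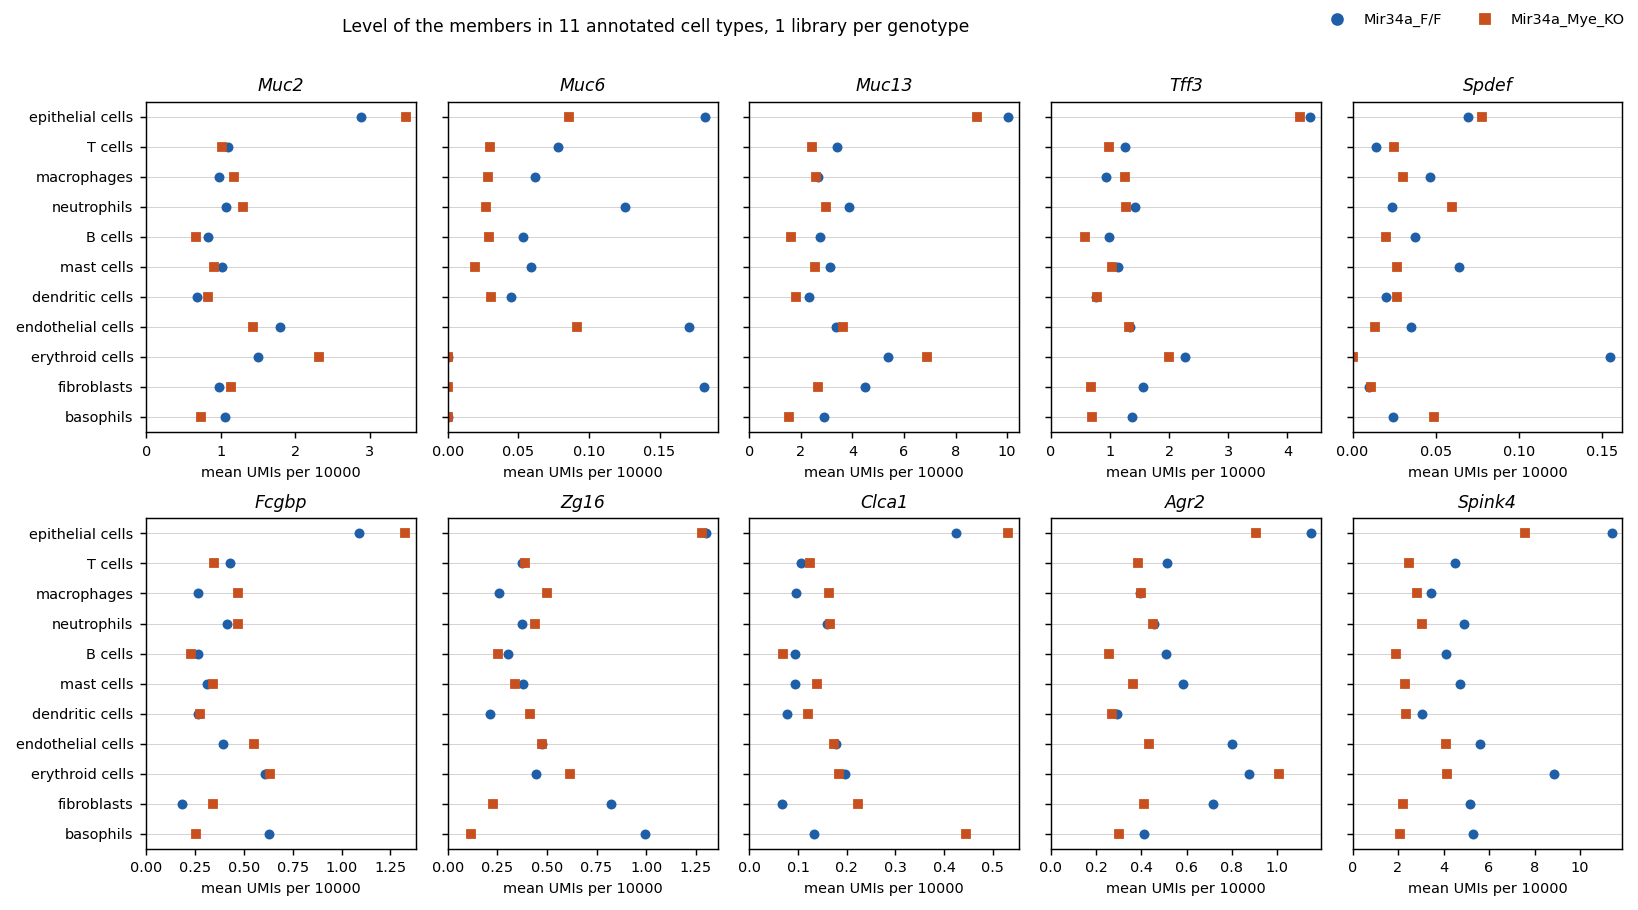
Mean level of each gene (x axis, UMIs per 10000 UMIs of the cell, each panel with its own scale) in the 11 annotated cell types (y axis), with circles for the library labelled Mir34a_F/F and squares for the library labelled Mir34a_Mye_KO. Epithelial cells lead in most panels, and T cells, macrophages and neutrophils hold each gene too; endothelial cells, erythroid cells, fibroblasts and basophils rest on 30 to 116 cells.

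The same held for the whole set. Over the 10 genes, the T cell level was 20.4% to 44.5% of the epithelial level in the library labelled Mir34a_F/F (median 35.9%) and 23.2% to 42.7% in the library labelled Mir34a_Mye_KO (median 29.6%), with Agr2 at the upper end in both. The mix of the genes was also alike. Of the UMIs of the 10 genes in epithelial cells, Spink4 made up 40.1% and 24.3%, Muc13 27.8% and 36.6%, and Tff3 11.9% and 15.3%. In T cells these shares were 35.4% and 27.6%, 33.8% and 32.6%, and 9.69% and 12.0%. So the lower share of Spink4 in the library labelled Mir34a_Mye_KO was seen in T cells as well as in epithelial cells. Whether the UMIs in T cells came from RNA outside the cells was not tested, and a UMI of these genes outside the epithelium is read here as background.

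Within the epithelium, most of the mucus mRNA sat in few cells. The 1% of epithelial cells highest for a gene held 49.1% and 41.9% of the level of Muc2, 57.8% and 49.6% of Tff3, and 58.3% and 50.1% of Fcgbp. For Clca1 this was 72.9% and 61.3%, and for Zg16 74.4% and 58.5%. Zg16, a lectin of the mucus layer that binds bacteria, had 50% of its 13656 and 10261 UMIs in 5 and 11 cells, the fewest of the set, the highest cell reached 1119 and 749 UMIs per 10000, and the median cell had none. Clca1 had 50% of its UMIs in 16 and 26 cells, and Muc2 in 58 and 72. Means of Zg16 and Clca1 over all epithelial cells therefore rest to a large part on few cells. Spink4 and Agr2 had less in the top 1% of cells, with 46.6% and 39.9% and with 37.8% and 27.5% of their level. For Spink4 this was close to Muc2, and 50% of its UMIs were in 42 and 50 cells, fewer than for Muc2. The median cell had 2.63 and 2.09 UMIs per 10000 of Spink4 but none of Agr2. Muc13 was of another kind. Its top 1% held 5.40% and 5.33%, its median cell had 7.02 and 6.44 UMIs per 10000, and 85.0% and 86.0% of epithelial cells had a UMI. Spdef was sparse, with 618 and 659 UMIs in all and a UMI in 3.48% and 4.31% of epithelial cells against 0.583% and 1.77% of T cells.

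**Figure D2:**
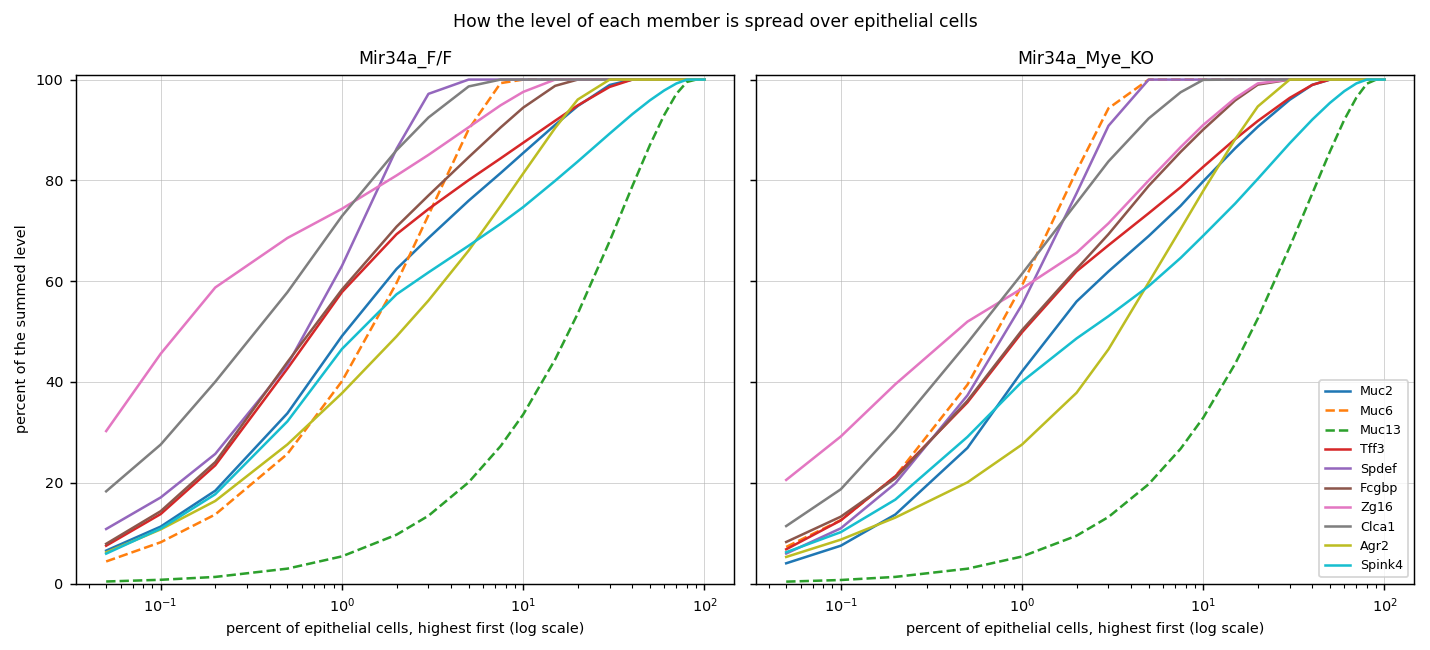
Percent of the summed level of each gene (y axis) held by the given percent of epithelial cells, ranked from the highest down (x axis, log scale), with 1 panel per library. Dashed lines mark Muc6 and Muc13; the Muc13 curve lies far to the right of all others, and that of Zg16 starts highest.

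Cells rich in Muc2 were found in both libraries at similar shares. A Muc2-high cell was defined as one with at least 20 Muc2 UMIs per 10000 and at least 5 Muc2 UMIs. There were 230 such epithelial cells in the library labelled Mir34a_F/F, 1.98% (exact binomial interval 1.73% to 2.25%), and 228 in the library labelled Mir34a_Mye_KO, 2.31% (2.02% to 2.63%). These shares were not matched for depth. Only 3 of 3088 and 2 of 2649 T cells met the same definition, 0.0972% and 0.0755%, far below the epithelial shares, unlike for a lone UMI. Neutrophils had 4 of 1053 and 5 of 1077, 0.380% and 0.464%, the highest shares among the 5 largest other types, macrophages had 5 in each library, and B cells had 1 of 943 and 0 of 926, for which the exact upper limit is 0.398%. A definition by the whole set, Muc2 included, gave larger shares. With 1 library per genotype and intervals of counting error only, neither definition tests a difference between the genotypes. After thinning to 1000 UMIs, at least 4 of the 10 genes were found in 4.30% (3.92% to 4.69%) and 5.30% (4.86% to 5.76%) of epithelial cells, and in 0.732% and 0.568% of T cells. Those cells lay close to the limit, as 690 and 781 epithelial cells had exactly 3 genes and 249 and 280 exactly 4. Without thinning, the shares were 36.6% and 47.6%, in the order of depth.

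The other goblet genes went with Muc2. Epithelial cells with no Muc2 UMI (7428 and 5221 cells) were set against the 260 and 245 cells with 20 or more Muc2 UMIs per 10000. Tff3 was at 1.45 and 1.57 without Muc2, and at 113 and 91.7 in the Muc2-rich cells. Fcgbp went from 0.406 and 0.504 to 28.9 and 31.1, Clca1 from 0.131 and 0.187 to 12.4 and 13.2, and Zg16 from 0.383 and 0.624 to 39.9 and 25.5. These 4 were 40.8 to 104 times higher in the Muc2-rich cells of either library. Cells that should lack these genes had levels not far from those of Muc2-free cells. Tff3 was at 1.25 and 0.978 in T cells and 0.928 and 1.25 in macrophages, Fcgbp at 0.431 and 0.346 and at 0.264 and 0.469, Clca1 at 0.106 and 0.124 and at 0.0957 and 0.164, and Zg16 at 0.371 and 0.387 and at 0.257 and 0.502. Which library stood further above this background depended on the cell type taken for it. Spink4 (5.37 and 4.64 against 184 and 102) and Agr2 (0.655 and 0.685 against 15.4 and 7.96) followed with smaller folds, of 34.4 and 22.05 and of 23.5 and 11.6. In the cells between, with 5 to under 20 Muc2 UMIs per 10000, Spink4 was already at 40.1 and 14.7, but these 672 and 888 cells were shallow, with median UMIs of 1923 and 1642, so that 1 Muc2 UMI could place a cell there. The mean of 9 genes of the set reached 0.1 in either library, so that 8 besides Muc2 could be counted, and 6 of these were at least 2-fold higher in the Muc2-rich cells of both libraries, against 2.51% of all 9322 genes with such a mean. None was 2-fold lower in both, against 2.38%. Spdef, below that mean, was 22.6 and 15.8 times higher. Muc13 and Muc6 stood apart: Muc13 was at 9.84 and 8.55 without Muc2 and at 14.97 and 15.5 with it, a log2 ratio of 0.61 and 0.86, and Muc6 was at 0.181 and 0.0871 against 0.106 and 0.0466, where the Muc2-rich cells held 14 Muc6 UMIs in each library.

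**Figure D3:**
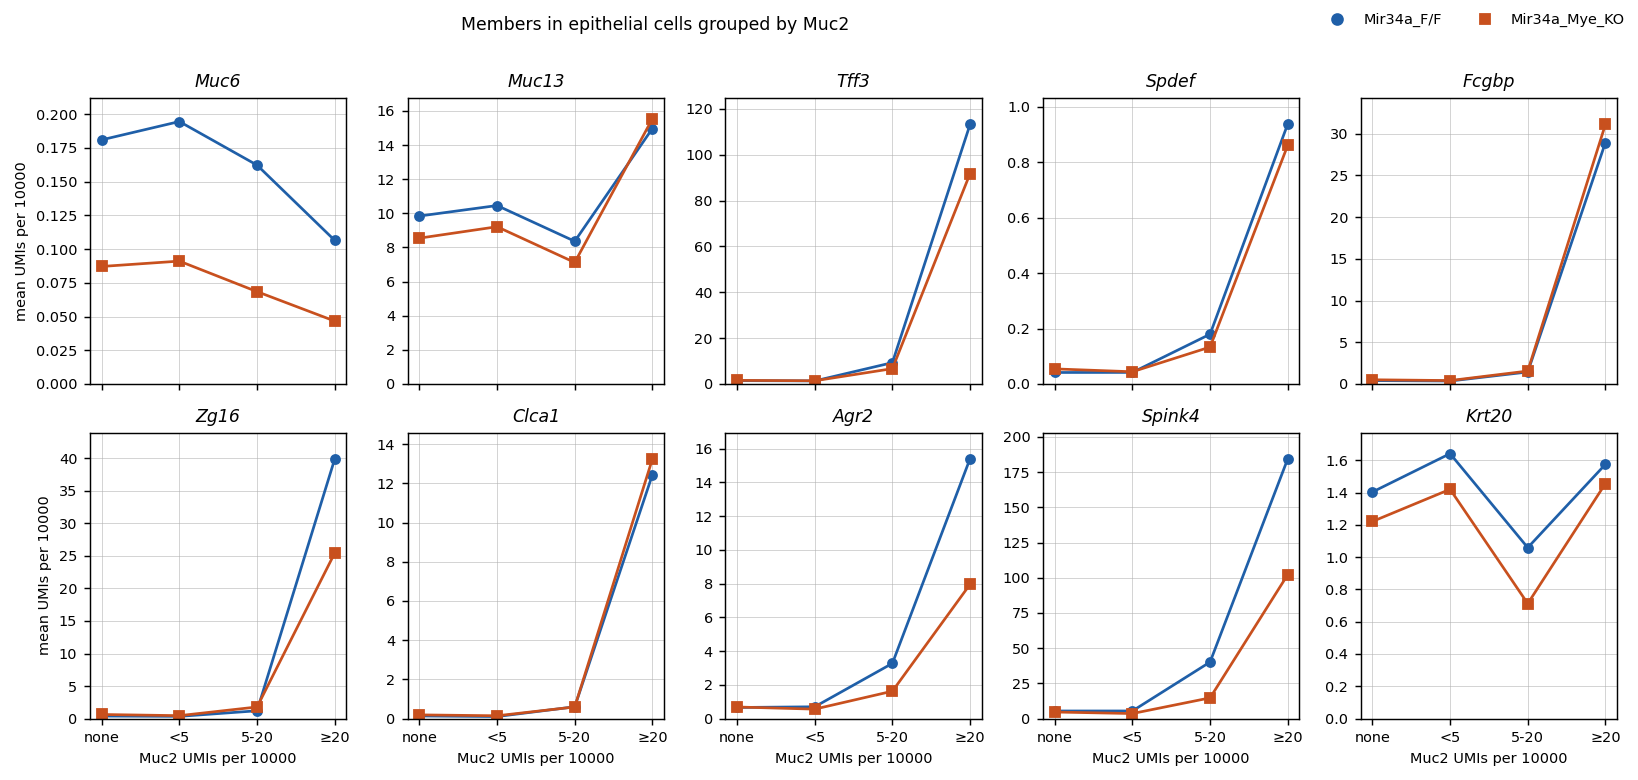
Mean level of 9 genes of the set and of Krt20 (y axis, UMIs per 10000, each panel from 0 with its own scale) in epithelial cells grouped by their Muc2 UMIs per 10000 (x axis), with circles for the library labelled Mir34a_F/F and squares for the library labelled Mir34a_Mye_KO. Tff3, Fcgbp, Zg16, Clca1, Spdef, Agr2 and Spink4 are all highest in the last group, whereas Muc6 is lowest there. Muc13 is also highest there, at 14.97 and 15.5, against 7.12 to 10.5 in the other groups.

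Genes of the wider goblet lists were also higher in Muc2-rich cells. All counts of this comparison stand beside 2.51% of all genes higher and 2.38% lower. Of the genes that build and fold mucin (glycosyltransferases and helpers of the endoplasmic reticulum), 6 of 10 with a mean of at least 0.1 were 2-fold higher in both libraries and none was lower. Among them were Ern2, the goblet form of the stress sensor IRE1, at 1.22 and 1.51 against 0.0926 and 0.116, Galnt7, which starts O-glycans, at 3.37 and 3.98 against 0.831 and 0.757, and also Galnt12, C1galt1, C1galt1c1 and Fut2. Hspa5, a general chaperone, was less than 2-fold apart (5.70 and 4.84 against 4.11 and 3.80), and Galnt3, which also starts O-glycans, passed 2-fold only in the library labelled Mir34a_Mye_KO (1.41 and 1.63 against 0.786 and 0.696). Of granule and other goblet products 6 of 8 were higher, with Reg4, a secreted lectin, at 16.3 and 5.93 against 0.729 and 0.746, Ang4, an antimicrobial ribonuclease, at 7.80 and 4.91 against 0.413 and 0.527, and also Sytl2, Rab27a, Pla2g10 and Tmed3. Fxyd3, a regulator of the sodium pump and the most abundant gene of that list, was at 3.05 and 1.78 against 2.65 and 1.51. Of the transcription factors 2 of 6 were higher, Creb3l1 at 1.41 and 1.24 against 0.159 and 0.125 and Foxa3 at 1.32 and 1.01 against 0.326 and 0.254. Klf4, a factor of goblet and absorptive cells, reached 2-fold only in the library labelled Mir34a_Mye_KO (6.23 and 7.17 against 4.25 and 3.38). Xbp1, a factor of the secretory machinery, was at 1.57 and 1.58 against 0.902 and 0.832, and Foxa1, a forkhead factor, at 0.827 and 0.669 against 0.753 and 0.621, both under 2-fold.

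Genes of Paneth cells, the antimicrobial secretory cells of the small intestine, were higher in the Muc2-rich cells too. Of 8 such genes, 7 were 2-fold higher in the Muc2-rich cells of both libraries and none was lower, beside 2.51% and 2.38% of all genes. The defensin Defa24 was at 83.4 and 32.9 against 3.02 and 3.77, Lyz1, a lysozyme, at 60.8 and 25.6 against 3.52 and 4.27, and Mmp7, which activates defensins, at 17.7 and 5.78 against 2.12 and 1.54. Defa17, Defa30, Itln1 and Reg3g were the others, and Reg3b was the exception. Of 2 enteroendocrine genes with a mean of at least 0.1, Chgb (which reached it in the library labelled Mir34a_Mye_KO alone) and Pyy, both were lower in the Muc2-rich cells. Of 6 stem cell genes, Axin2 and Ascl2 were lower and none was higher. Of 5 genes of absorptive colonocytes, Car1 and Ceacam20 were lower, and Guca2a, which encodes the peptide guanylin, was higher (4.23 and 2.59 against 0.394 and 0.309). Of the other mucins Muc1 and Muc4, both bound to membranes, were higher and Muc3 was not. Muc5ac and Muc5b, which lie beside Muc2, were nearly silent in the epithelium, at 0.00178 and 0.00541 and at 0.00248 and 0.00248. No tuft cell gene reached a mean of 0.1.

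Over single epithelial cells, the set fell into the same 3 parts. Correlations were taken of ln(1 + UMIs per 10000) over the cells of each library; they are descriptions, since these cells share a library and differ in depth. Among the 8 genes other than Muc6 and Muc13, all 28 pairs were positive in both libraries, at r of 0.096 to 0.447 and 0.072 to 0.440. Of 13837 genes ranked, the 5 most like Muc2 were Tff3, Fcgbp, Sval1, Fer1l6 and Spink1, with a mean r over the libraries of 0.37 to 0.43, and the 5 most like Clca1 were Fer1l6, Fcgbp, Muc2, Tff3 and Spink1. Tff3 was followed by Fcgbp, Muc2, Sval1, Spink1 and Spink4. Muc13 correlated with the 8 at r of 0.017 to 0.074 and -0.032 to 0.072, and its own nearest genes were Lypd8, Dmbt1, Cdhr5, Clca4b and Lgals4 (mean r 0.45 to 0.52), of which Cdhr5 belongs to the brush border of absorptive cells. Muc6 correlated with the 8 at r of -0.054 to -0.005 and -0.034 to -0.008, and was nearest to Pnliprp2, Ptn, Dkk3, Mdga2 and Pycr1 (mean r 0.27 to 0.30). Cells with Krt20 but no Lgr5 UMI were set against cells with Lgr5 but no Krt20 UMI. Each of the 5 genes nearest to Muc13 was at least 2-fold higher in the former in both libraries, beside 5.35% of all genes. Each of the 5 nearest to Muc6 was at least 2-fold lower, beside 8.53%. These genes were picked by correlation with Muc13 or Muc6 over the same epithelial cells, so nothing further is read from this.

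The grouping by Lgr5 and Krt20 set each gene beside a stem cell marker and a marker of differentiated epithelium. Cells with Lgr5 but no Krt20 UMI numbered 1646 and 1283, cells with Krt20 but no Lgr5 UMI 3308 and 2851, cells with both 556 and 447, and cells with neither 6104 and 5284. Muc6 was on the Lgr5 side. It was at 0.484 and 0.250 in Lgr5-only cells, 0.248 and 0.180 in cells with both, and 0.0656 and 0.0285 in Krt20-only cells, a log2 ratio of Krt20-only over Lgr5-only of -2.88 (-3.10 to -2.67) and -3.14 (-3.51 to -2.78). A Muc6 UMI was found in 20.4% and 10.8% of Lgr5-only cells but 4.44% and 2.46% of Krt20-only cells, and in 4.19% and 1.49% against 0.552% and 0.246% after thinning. T cells had Muc6 in 2.43% and 2.08% of cells, or 0.632% and 0.303% after thinning. After thinning, the Krt20-only share was thus near the T cell share and the Lgr5-only share above it. Before thinning, both were above it. Muc13 was on the Krt20 side, at 4.70 and 4.63 in Lgr5-only, 10.4 and 10.8 in double-positive and 16.4 and 14.1 in Krt20-only cells (log2 ratio 1.80, 1.76 to 1.84, and 1.61, 1.57 to 1.65). Both genes were thus at a middle level in the double-positive cells of both libraries. These cells were the deepest group, with median UMIs of 13578 and 13281. The markers had UMIs in T cells too: Lgr5 was at 0.170 and 0.175 there and 0.587 and 0.559 in epithelial cells. Krt20 was at 0.415 and 0.229 against 1.45 and 1.25. How far such background or depth shaped the groups was not tested.

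**Figure D4:**
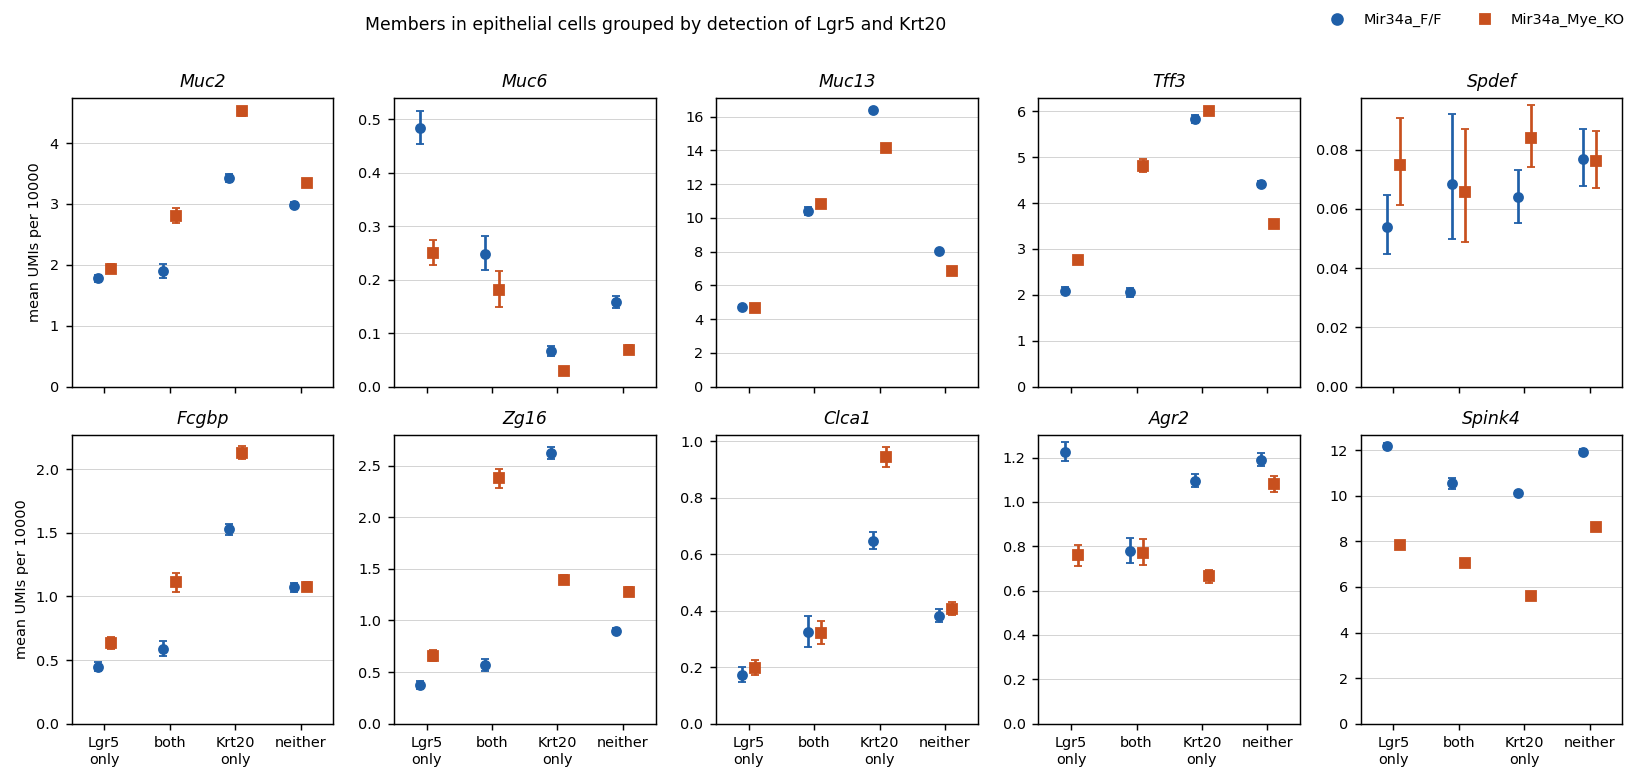
Mean level of each gene (y axis, UMIs per 10000, each panel from 0 with its own scale) in epithelial cells grouped by detection of Lgr5 and Krt20 (x axis), with circles for the library labelled Mir34a_F/F and squares for the library labelled Mir34a_Mye_KO; bars are exact Poisson 95% intervals of the summed UMIs, scaled to the mean. Muc6 is highest in Lgr5-only cells, Muc13 in Krt20-only cells, and Agr2 and Spink4 show no Krt20-only excess.

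In the mean over cells, most secreted mucus genes were higher on the Krt20 side as well. Clca1 was at 0.171 and 0.197 in Lgr5-only and 0.648 and 0.945 in Krt20-only cells, a log2 ratio of 1.92 (1.69 to 2.16) and 2.26 (2.07 to 2.47). Fcgbp had log2 ratios of 1.77 and 1.75, Tff3 of 1.48 and 1.12, and Zg16 of 2.82 and 1.08. Muc2 itself was at 1.78 and 1.93 against 3.42 and 4.52, a log2 ratio of 0.95 (0.892 to 1.002) and 1.23 (1.16 to 1.29), which passed 2-fold in the library labelled Mir34a_Mye_KO alone. Agr2 and Spink4 did not join them: their log2 ratios were -0.16 and -0.19 and -0.27 and -0.49. Spdef was at 0.0540 and 0.0749 against 0.0639 and 0.0841, and the intervals of its ratio held 0. Of the 9 genes with a mean of at least 0.1, 5 (Muc13, Tff3, Fcgbp, Zg16 and Clca1) were 2-fold higher in Krt20-only cells of both libraries, against 5.35% of all 9322 genes, and 1 (Muc6) was 2-fold lower, against 8.53%. Their median log2 ratio was 1.48 and 1.12, beside -0.29 and -0.35 over all genes.

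For the secreted genes this side rested in large part on few cells. Without the 1% of epithelial cells highest in the summed genes of the set, the log2 ratios of Clca1 were 0.40 and 0.99, of Fcgbp 0.58 and 0.54, of Tff3 0.32 and 0.31, and of Zg16 1.04 and 0.26, so that of the 6 genes past 2-fold in both libraries 2 were left, Muc13 (1.81 and 1.61) and Muc6 (-2.88 and -3.12). Muc6 made up only 0.614% and 0.329% of the UMIs of the set in epithelial cells, so this removal was no check of it, and its own top 1% of cells held 40.2% and 58.8% of its level. The share of Muc2-high cells was 1.28% (0.791% to 1.94%) and 1.25% (0.714% to 2.02%) in Lgr5-only cells and 2.48% (1.98% to 3.07%) and 3.16% (2.55% to 3.87%) in Krt20-only cells. Krt20-only cells also had more mitochondrial RNA than Lgr5-only cells, with medians of 12.9% and 22.6% against 5.39% and 11.9%, and median UMIs of 7226 and 10704 against 9684 and 8012. Among cells under 10% mitochondrial content with at least 500 mRNAs, the median log2 ratio of the set was 2.00 and 2.31, and there Agr2 (0.42 and 0.73) and Spink4 (0.23 and 0.47) were higher on the Krt20 side.

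Muc2-high cells differed among themselves by Krt20. The 91 and 102 with a Krt20 UMI, with median UMIs of 6577 and 10958.5 against 5702 and 7640 in the 139 and 126 without, held more Clca1 (20.7 and 22.8 against 9.48 and 7.205), more Fcgbp (42.9 and 50.5 against 25.5 and 19.4), more Zg16 (82.9 and 35.5 against 19.7 and 20.3) and more Tff3 (156 and 140 against 106 and 64.0). Muc2 differed less, at 98.2 and 108 against 85.0 and 70.7. In the other direction went Reg4 (12.4 and 1.98 against 21.4 and 9.68), Lyz1 (59.7 and 13.7 against 71.2 and 37.4), Spink4 (194 and 90.4 against 213 and 124) and Agr2 (16.3 and 6.16 against 17.6 and 10.2). The direction in the mean was the same in both libraries, whereas the sizes were not. In the library labelled Mir34a_F/F the log2 ratios of Agr2 and Spink4 were only -0.12 and -0.14. The share of cells with a UMI was lower with Krt20 for Reg4 in both libraries, but higher for Spink4 in both. For Lyz1 and Agr2 it was lower in the library labelled Mir34a_F/F alone. Over all epithelial cells, Zg16 had 50% of its UMIs in 5 and 11 cells, so its means rest on few cells here too. Reg4 and Lyz1 were singled out here after their values were seen.

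In the wider lists, all counts of this comparison stand beside 5.35% of all genes higher and 8.53% lower. Absorptive genes were 2-fold higher in Krt20-only cells of both libraries for 4 of 5 (Car1, Clca4a, Ceacam20 and Krt20, the last by definition). Stem cell genes were lower for 5 of 6 (Lgr5, by definition, with Smoc2, Axin2, Lrig1 and Sox9). Membrane mucins went with Muc13: Muc1, Muc3 and Muc4, all 3 of the other mucins with a mean of at least 0.1, were higher, with log2 ratios of 1.495 and 1.37, 2.32 and 2.05, and 2.12 and 2.03. Of goblet granule genes 0 of 8 were higher, a count near the 5.35% of all genes. None of the 8 was 2-fold lower in both libraries. Of their 4 most abundant, Fxyd3 had log2 ratios of -0.78 and -0.74, Reg4 of -0.62 and -1.19, Ang4 of -0.18 and -1.39 and Sytl2 of -0.55 and -0.23. Pla2g10 (0.73 and 0.65) and Rab27a (0.75 and 0.30) went the other way. Tmed3 was near 0 (0.16 and -0.01), and the remaining gene was lower in both libraries. Of 6 transcription factors 1 was lower, Foxa2, a forkhead factor of endoderm (-1.78 and -1.84), a count near the share of all genes. Of 10 mucin glycosylation genes, Galnt12 and Fut2 were higher. Of 8 Paneth genes 1 was higher, Reg3b, again near the share of all genes, and Defa24, Defa30 and Itln1 were lower. Of 2 enteroendocrine genes, Chgb was higher (2.74 and 4.79).

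Between the libraries, the genes of the set went both ways over epithelial cells, with log2 ratios of -1.08 to 0.32. With 1 library per genotype there was no test, and ratios describe these libraries. Muc6 was at 0.182 in the library labelled Mir34a_F/F and 0.0858 in the library labelled Mir34a_Mye_KO, a log2 ratio of -1.08 (-1.20 to -0.97), on 2138 and 883 UMIs. Of the 9 genes with a mean of at least 0.1 in either library, 1 (Muc6) was past 2-fold lower, beside 0.418% of all 9322 genes, and none was higher, beside 0.343%. Muc6 reached that mean only in the library where it was higher, so nothing is read from this count. The call ended with the T cell level subtracted (-0.89), with a total without mitochondrial, immunoglobulin and described genes (-0.94) and with a pseudocount of 1 (-0.12), and with UMIs summed over cells 3 genes passed. Muc6 was lower in the library labelled Mir34a_Mye_KO in 8 of 8 cell types with a UMI in both libraries, and in T cells the log2 ratio was -1.38 (-1.90 to -0.87), so background moved with it. Within epithelial groups the difference was there in Lgr5-only cells (0.484 and 0.250) and in Krt20-only cells (0.0656 and 0.0285). It was there in cells with neither (0.158 and 0.0688) and smaller in cells with both (0.248 and 0.180).

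Spink4 was at 11.4 and 7.58, a log2 ratio of -0.59 (-0.60 to -0.58), and Agr2 at 1.15 and 0.905, a log2 ratio of -0.34 (-0.39 to -0.30). From UMIs summed over cells, in which deep cells weigh more, both passed 2-fold (-1.01 and -1.06). Spink4 was lower in the library labelled Mir34a_Mye_KO in 11 of 11 cell types, and in T cells by a log2 ratio of -0.85 (-0.91 to -0.79). With summed UMIs the T cell ratio of Spink4 was -0.86, so which of the 2 cell types differed more depended on the scale. Agr2 was lower there in 9 of 11 cell types. Its log2 ratio was -0.41 (-0.57 to -0.24) in T cells, -0.98 in B cells and -0.68 in mast cells. It was 0.02 in macrophages and -0.01 in neutrophils. Spink4 and Agr2 were lower within the Muc2-rich cells as well. Among the 230 and 228 Muc2-high cells, Spink4 was at 205.5 and 109.2 (median cell 81.9 and 40.7) and Agr2 at 17.1 and 8.37 (median cell 6.16 and 3.40), log2 ratios of -0.91 and -1.03, while Muc2 was at 90.2 and 87.5. Tff3 (126 and 98.2) and Zg16 (44.7 and 27.1) were lower in the mean of these cells, but in the median cell Tff3 was at 48.1 and 59.4 and Zg16 at 0 and 0.418. Fcgbp (32.4 and 33.3), Clca1 (13.9 and 14.2) and Muc13 (15.8 and 15.8) were nearly equal in the mean, but the median cell was at 15.3 and 18.3 for Fcgbp, 0.635 and 3.54 for Clca1 and 14.96 and 12.9 for Muc13.

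The remaining genes had log2 ratios of -0.19 to 0.32 over all epithelial cells, as means over cells. Muc2 had a log2 ratio of 0.27 (0.25 to 0.29), Fcgbp of 0.28, Clca1 of 0.32 and Spdef of 0.16 (0.00 to 0.32). Muc13 was at -0.19, Tff3 at -0.06 and Zg16 at -0.02, whose interval of -0.06 to 0.01 held 0. These, like the ratios of Muc6, Spink4 and Agr2, are to be read against the median over all 9322 genes of -0.22. That median was -0.09 when mitochondrial, immunoglobulin and the described genes were left out of the total. The median over the 9 genes was -0.06. With summed UMIs, Fcgbp was at 0.50, Clca1 at 0.54, Zg16 at -0.32 and Muc2 at 0.23, each outside its interval. Spdef was at 0.18, inside its interval. Tff3 and Muc13 changed sign with summed UMIs (0.08 and 0.11), and Tff3 was 0.04 with that other total. Of the lists, 0 genes passed 2-fold between the libraries among goblet transcription factors, other mucins, glycosylation, granule, Paneth, absorptive and stem cell genes. That is near the share of all genes, 0.343% higher and 0.418% lower, so nothing is read from it. Chgb, an enteroendocrine granin, was at 0.0526 and 0.159, and reached the mean of 0.1 only in the library where it was higher.

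**Figure D5:**
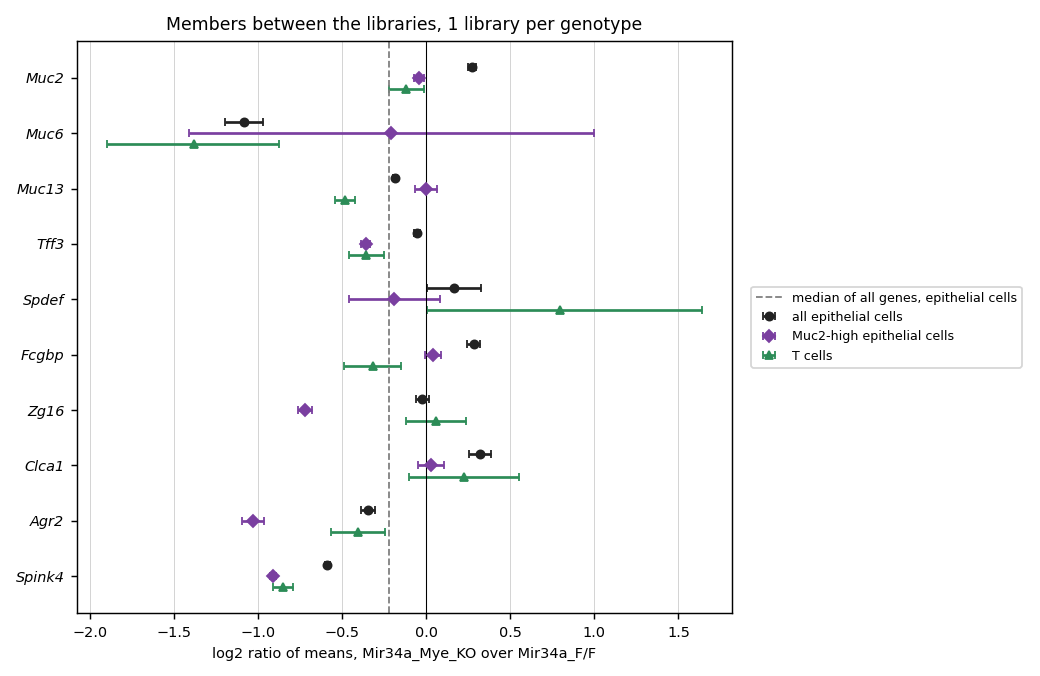
Log2 ratio of mean levels of each gene, library labelled Mir34a_Mye_KO over library labelled Mir34a_F/F (x axis), in all epithelial cells (circles), Muc2-high epithelial cells (diamonds) and T cells (triangles); bars are 95% intervals of counting error, and the dashed line is the median of all genes in epithelial cells, -0.22. Muc6 in epithelial and T cells and Spink4 and Agr2 in all 3 groups lie to the left of that line. Agr2 is furthest left in Muc2-high cells. Tff3 and Zg16 in Muc2-high cells and Muc13, Tff3 and Fcgbp in T cells lie to its left too.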

How the data were processed

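Single-cell RNA sequencing was done on CACs of 2 genotypes, with 10x 3′ v3.1 chemistry and 1 library each. As the authors describe, Cell Ranger 7.2.0 counted UMIs against mm10, cells above a mitochondrial limit were left out and doublets were removed with Scrublet. The authors deposited natural log values: UMIs were scaled to 10000 per cell and 1 was added before the log. The deposited cell types were used as given. The log was undone and whole UMIs were recovered, with a largest deviation of 1.5e-10 UMIs.

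A level is the mean over cells of UMIs per 10000. Ratios between libraries or groups carry a 95% interval whose width is the exact binomial interval of the summed UMIs, centred on the ratio of means, and shares carry exact binomial intervals; both cover counting error only. The procedure was also run on simulated data. No outcome of that run is given here, so it is no evidence that the intervals suit UMIs held by few cells. For Agr2 between the libraries in epithelial cells, the interval of -0.39 to -0.30 left out the value from summed UMIs, -1.06. Since there was 1 library per genotype, no p-value was computed. Counts of genes past 2-fold used the 9322 genes with an epithelial mean of at least 0.1 in a library, which left out Spdef. For shares across depths, cells were thinned to 1000 UMIs (seed 34), leaving 10987 and 9705 epithelial cells. Genes were named by a rule: the described genes, the 5 genes most correlated with each of Muc2, Tff3, Clca1, Muc6 and Muc13, and of each list up to 4 of the most abundant genes and those past 2-fold. The genes and lists were chosen with earlier results of these data known. Gene positions come from GENCODE vM21 and promoter windows from RefSeq. Python 3.11.15, numpy 2.4.6, scipy 1.17.1 and pandas 2.3.3 were used.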

Additional observations from a re-analysis of the deposited data

Results flagged for a closer look

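A handful of genes moved between the libraries in opposite directions in different cell types, with intervals of counting error off 0 on both sides; with 1 library per genotype, these differences were not tested. In epithelial cells, Muc2 was higher in the library labelled Mir34a_Mye_KO (log2 ratio 0.27), as in macrophages (0.27), neutrophils (0.29) and dendritic cells (0.28), whereas it was lower there in T cells (-0.12) and in B cells (-0.31). With summed UMIs the T cell ratio was 0.013, so that direction did not hold. Fcgbp was higher in epithelial cells (0.28) and macrophages (0.83) and lower in T cells (-0.32). Tff3 was lower in epithelial cells (-0.06) and higher in macrophages (0.43), although the epithelial sign turned with summed UMIs. Spdef was at 0.16 in epithelial cells and -0.60 in macrophages, the latter on 60 and 66 UMIs. It was also higher in T cells (0.79, on 19 and 49 UMIs) and neutrophils (1.34, on 15 and 44 UMIs). Median depth was higher in the library labelled Mir34a_Mye_KO in each of these cell types, and its part in the differences was not tested.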

How the results depend on the processing

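There were 191 values under another setting, of single genes and of the median over all genes. Of these, 45 lay inside the interval of the main value and 12 turned. The other 134 left the interval and were not counted as turned. Only a gene whose main interval left out 0 could count as turned, so the 134 need not all have kept their direction. For the library ratio, the median over the genes of -0.06 became 0.078 with summed UMIs, 0.041 with the total without mitochondrial, immunoglobulin and described genes, 0.036 without the top 1% of cells and -0.16 in cells with at least 500 mRNAs and under 10% mitochondrial RNA. The 1 gene past 2-fold became 3 with summed UMIs and 0 with a pseudocount of 1, with the T cell level subtracted (Muc6 -0.89) and with the other total (Muc6 -0.94). Turned were Muc13 with summed UMIs (0.11), Tff3 with summed UMIs (0.078), in the strict cells (0.025), with T cells subtracted (0.049), with the other total (0.041) and without the top 1% of cells (0.036), and Spdef with T cells subtracted (-0.056). For Krt20-only over Lgr5-only cells, the medians of 1.48 and 1.12 became 1.67 and 1.77 with 2 UMIs for detection, 1.76 and 0.95 with summed UMIs, 2.00 and 2.31 in the strict cells, 0.40 and 0.31 without the top 1% of cells and 0.67 and 0.70 with a pseudocount of 1; after thinning the first became 1.64. The count of 6 genes became 2 without the top 1% of cells and 1 with the pseudocount. Turned were Spink4 in the library labelled Mir34a_F/F after thinning (0.26) and, in the strict cells, Spink4 (0.23 and 0.47) and Agr2 (0.42 and 0.73). The share of epithelial cells with at least 4 of the genes (4.30% and 5.30%) was 10.6% and 13.3% for 3 genes, 2.03% and 2.41% for 5, 5.49% and 9.05% in the strict cells and 36.6% and 47.6% without thinning. The median T cell level over the 9 genes with a mean of at least 0.1 was 29.0% of the epithelial level in the library labelled Mir34a_Mye_KO, and 34.3% for neutrophils. With settings chosen after seeing the data, the median log2 ratio of Muc2-rich over Muc2-free cells (5.63 and 4.91) became 5.79 and 5.00 with at least 5 Muc2 UMIs and 6.22 and 5.54 in cells with at least 2000 UMIs. The causes of these shifts were not tested. Spdef had 618 and 659 UMIs and Muc6 2138 and 883 in epithelial cells, which limits the precision of both. No paired analysis was possible because there was 1 library per genotype, which also leaves no replicate to leave out.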
